A study of Mus musculus with 10 samples.

Results

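Regulatory T cells (Treg cells) that lack Fntb were compared between their effector (eTreg) and central (cTreg) subsets by ATAC-seq, an assay in which a transposase cuts accessible DNA, so that more reads in a region mean more open chromatin. The comparison rests on 4 of the 10 libraries of the study, 2 of FntbKO eTreg cells and 2 of FntbKO cTreg cells, and on all 77076 regions of the count table. The remaining 6 libraries are 3 of WT eTreg and 3 of WT cTreg cells. All cells were mouse Treg cells sorted directly from mixed bone marrow chimeras, in which blood cells grow from more than 1 donor marrow, and came from spleen and lymph nodes, so all 4 groups share that setting. No group had a treatment named in its labels. The allele or Cre line behind the Fntb deficiency, the ages, the strains, the markers used for sorting and the number of animals behind a library are not given in the sources used here. Nothing in the labels says that the 2 libraries of a group came from separate animals, so p-values measure only the spread between these samples, which may be technical.

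Fntb encodes the beta subunit of protein farnesyltransferase, which attaches a farnesyl lipid to proteins that end in a CaaX motif, among them RAS proteins, RHEB and lamins. The lipid anchors such proteins to membranes. Central Treg cells resemble naive T cells, recirculate through lymphoid organs and express genes such as Ccr7 and Lef1. Effector Treg cells have responded to antigen, express genes such as Icos, Tigit and Il10, and can enter tissues. Some effector Treg cells share chemokine receptors and transcription factors with helper T cell lineages.

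The Fntb locus was examined first. The region over the Fntb start site (chr12:76837192-76837915) had 13.1 and 11.2 CPM (reads of a region scaled for library size) in FntbKO cTreg libraries and 11.6 and 7.48 CPM in FntbKO eTreg libraries. In the WT libraries it had 36.9, 29.2 and 33.1 CPM in cTreg cells and 29.4, 30.3 and 30.2 CPM in eTreg cells. All 4 FntbKO libraries lay below all 6 WT libraries. Which part of the gene was deleted is not given in the sources used here. Within the FntbKO cells the region did not pass the test between subsets (log2 fold change -0.39, SE 0.21, adjusted p = 0.396), and neither did any other of the 12 Fntb regions. The locus of Foxp3, the lineage factor of Treg cells, had 3 regions, and none of them passed. The largest, chrX:7583812-7584418, had 29.3 and 35.1 CPM in cTreg libraries and 31.1 and 34.7 CPM in eTreg libraries, and the groups overlapped.

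The 10 libraries held 5058328 to 15328775 counts, and the FntbKO libraries spanned that whole range. On the first principal component, which held 32.6% of the variance, FntbKO cTreg 1 stood at the far end (-155.3), with FntbKO cTreg 2 at -67.1 and the FntbKO eTreg libraries at 0.7 and 28.7. WT cTreg libraries lay between -56.7 and 9 and WT eTreg libraries between 65 and 130.2. Of 77076 regions, 76216 had enough counts for testing and 860 did not. A region was given to the protein-coding gene it overlapped, or otherwise to the gene with the nearest start site within 100 kb. Of 21900 protein-coding genes, 17492 had a listed start site. For the others, both ends of the gene stood in for it, in the distances too. The gene name therefore gives a position and not a shown target.

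In the FntbKO cells 1033 regions differed between eTreg and cTreg libraries at an adjusted p under 0.05 (edgeR's quasi-likelihood test, Benjamini-Hochberg adjustment), which is 1.36% of those tested. Of these, 736 were more accessible in eTreg cells (0.966%) and 297 were less accessible (0.39%). Gains lay near genes of helper T cell cytokines (Il17a, Il17f, Ifng, Il21), of cytokine receptors (Il1rl1, Il23r) and of effector Treg cells (Tigit, Cxcr3, Maf). Losses lay near Lef1, Bach2, Satb1 and Klf2, genes of central Treg and naive T cells, and near Camk2a, Itgb3 and Tox. In the list of central Treg genes 9 of 460 tested regions were lower and 2 were higher, at Dapl1 and Foxp1. In bulk libraries a change in the share of a cell type and a change within its cells cannot be told apart. The number of calls depended on single libraries. Without FntbKO cTreg 1 it was 5 (0.00652% of those tested), without FntbKO eTreg 2 it was 10 (0.013%), without FntbKO eTreg 1 it was 191 (0.249%) and without FntbKO cTreg 2 it was 2249 (2.93%). Among WT libraries, which enter the shared estimate of the spread, leaving out WT cTreg 3 gave 623 and leaving out WT cTreg 2 gave 1807. In each fit without an FntbKO library the lone library was assumed to vary like the other groups. Of the 1033 regions, 5, 9, 180 and 851 remained called without FntbKO cTreg 1, eTreg 2, eTreg 1 and cTreg 2, in that order, and all 1033 kept the sign of their fold change without each of the 10 libraries in turn. A kept sign was likely beforehand, because the regions were called from these same libraries. FntbKO cTreg 1 had the lower value of the pair of cTreg libraries in 677 of the 736 gains and the higher value in 267 of the 297 losses. Unless a sentence says otherwise, each call below was lost without FntbKO cTreg 1 and without FntbKO eTreg 2. Most were also lost without FntbKO eTreg 1. Some were lost whichever FntbKO library was left out, among them those inside Ece1 and near Ifng, Klf2 and Gpr83.

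**Figure D1:**
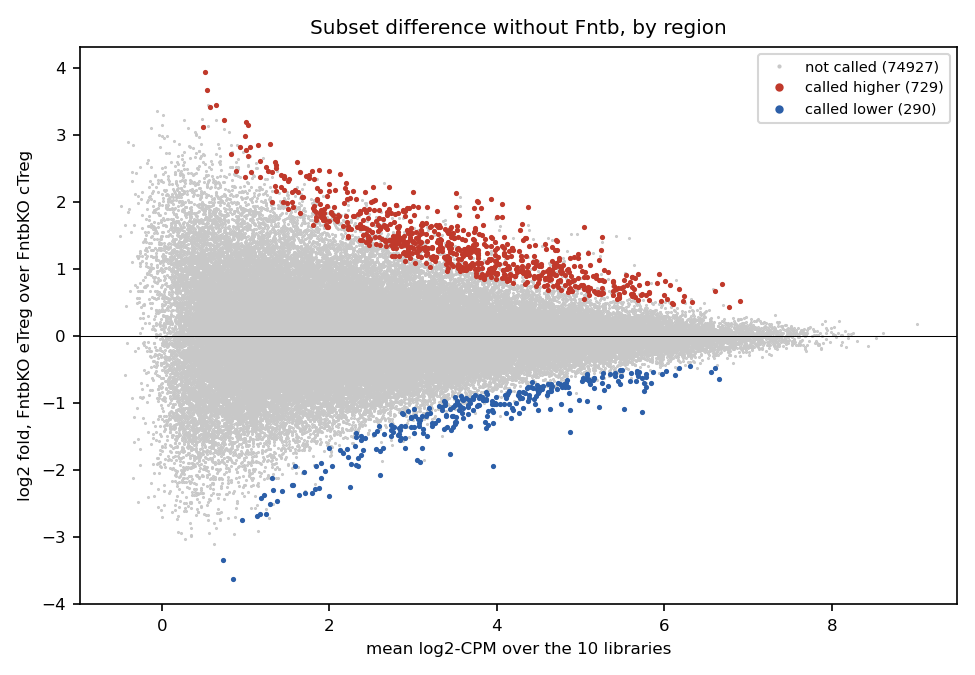
Change in accessibility of each region in FntbKO eTreg against FntbKO cTreg cells (vertical axis, log2 fold change) by its mean level (horizontal axis, mean log2 CPM over the 10 libraries). Each point is 1 region. Those called higher (729) and lower (290) in eTreg cells are coloured, and calls are few among regions of low level. Not drawn are 270 regions with 3 or fewer counts in an FntbKO group, among them 7 called higher and 7 called lower.

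**Figure D2:**
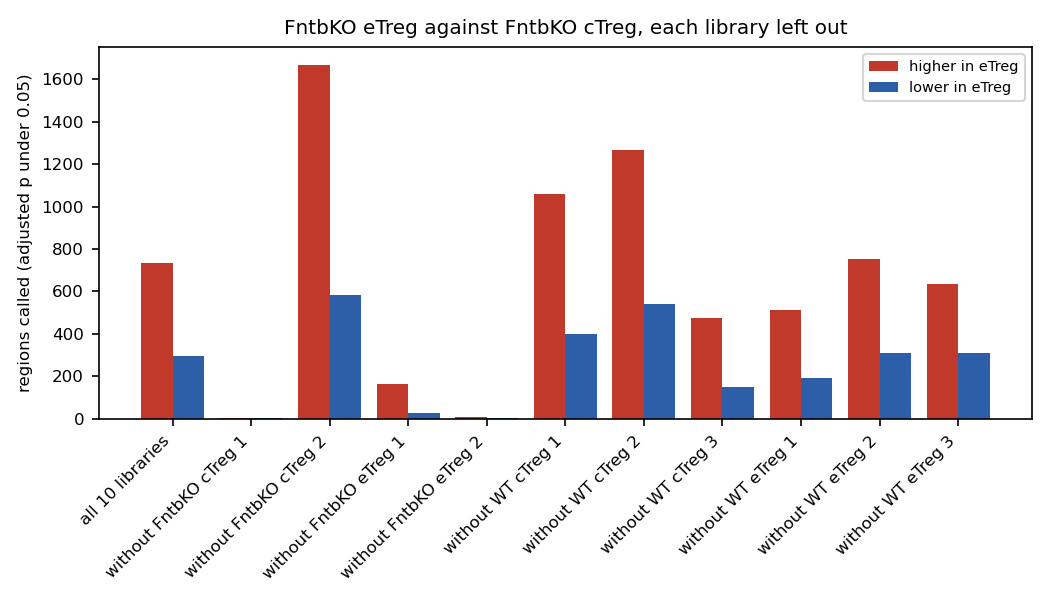
Number of regions called higher (red bars) and lower (blue bars) in FntbKO eTreg against FntbKO cTreg cells, with all 10 libraries and with 1 library left out at a time. The sum of both bars falls from 1033 to 5 without FntbKO cTreg 1 and to 10 without FntbKO eTreg 2, and rises to 2249 without FntbKO cTreg 2.

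Only 4 regions stayed called without each FntbKO library in turn, and these 4 also stayed called without each WT library. The first lies outside Stx11, 13.4 kb from its start site (chr10:12977641-12978188). Stx11 encodes syntaxin 11, which takes part in granule release by lymphocytes. Its accessibility was 4.79 and 7.52 CPM in cTreg libraries and 22.0 and 21.6 CPM in eTreg libraries. This is a 3.42-fold difference (log2 1.77, SE 0.23, adjusted p = 0.000532), and without 1 library the log2 fold change was 1.53 to 2.19. In WT cells it had 12.7, 14.8 and 13.3 CPM in cTreg and 24.3, 18.6 and 26.6 CPM in eTreg libraries. The WT eTreg values were close to the FntbKO eTreg values, and the WT cTreg values were above both FntbKO cTreg values. The region was chosen on its FntbKO values, and the difference between the genotypes in the change did not pass (log2 1.01, SE 0.29). Medians over all 736 gains had the same order. They were 4.65 and 6.81 CPM in FntbKO cTreg and 7.54, 9.64 and 8.66 CPM in WT cTreg libraries. In eTreg libraries they were 14 and 14.9 CPM (FntbKO) and 14.7, 13.5 and 16.2 CPM (WT).

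The second region had no start site of a protein-coding gene within 100 kb (chr10:44821540-44822146). The nearest gene spans were those of Prep, 245 kb away, and Prdm1, 293 kb away, the latter encoding BLIMP-1, a transcription factor of effector Treg cells. The region had 9.57 and 15.8 CPM in cTreg libraries and 36.9 and 43.3 CPM in eTreg libraries (log2 1.62, SE 0.19, adjusted p = 0.000297). The groups, of 2 libraries each, were separated by more than the spread within either, which the choice of this region made likely. In WT cells the log2 fold change was 0.95 (adjusted p = 0.00121).

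The other two regions were less accessible in eTreg cells. A region inside Itgb3 (chr11:104661021-104661952), which encodes integrin beta 3, had 45.8 and 35.8 CPM in cTreg libraries and 13.0 and 16.2 CPM in eTreg libraries (log2 -1.44, SE 0.19, adjusted p = 0.000532). A region inside Camk2a (chr18:60952253-60952935), which encodes a calcium- and calmodulin-dependent kinase, had 29.8 and 23.8 CPM in cTreg libraries and 6.01 and 7.58 CPM in eTreg libraries (log2 -1.94, SE 0.25, adjusted p = 0.000532). Both fell in WT cells too, by 0.88 and 1.46 on the log2 scale (adjusted p = 0.00184 and 0.000593).

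**Figure D3:**
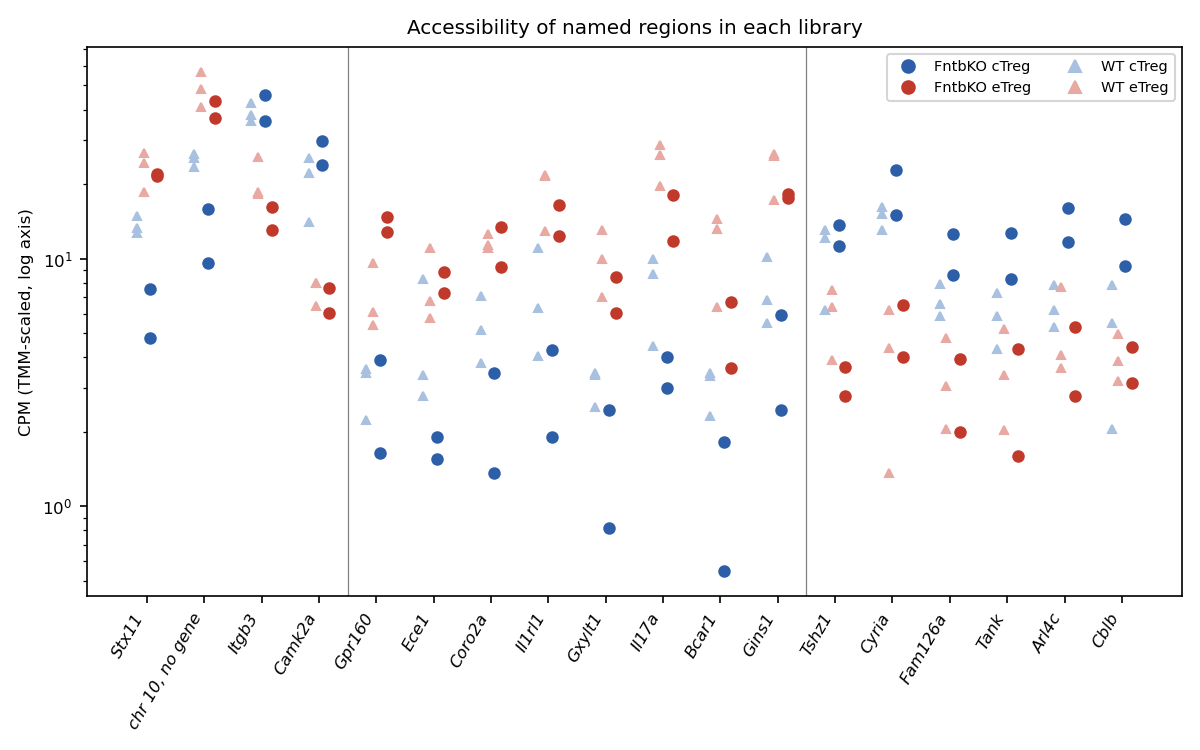
Accessibility (CPM, log axis) of named regions in each library, with FntbKO libraries as circles and WT libraries as triangles (blue cTreg, red eTreg); the first 4 regions are those called without each FntbKO library, then come gains and then losses. For the region near Stx11 both FntbKO eTreg libraries (22.0 and 21.6 CPM) lie above both FntbKO cTreg libraries (4.79 and 7.52 CPM).

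Among regions of at least median level, the largest gain lay inside Gpr160, an orphan G protein-coupled receptor gene. It had 1.64 and 3.89 CPM in cTreg libraries and 12.8 and 14.7 CPM in eTreg libraries (log2 2.22, SE 0.36, adjusted p = 0.00414). Gains of nearly the same size lay inside Ece1 (endothelin-converting enzyme, log2 2.22), inside Coro2a (a coronin that binds actin, 2.14), near Il1rl1 (2.13) and inside Gxylt1 (a xylosyltransferase, 2.02). The rest of the 15 largest had log2 fold changes of 1.92 to 2.01 and lay at Il17a, Bcar1, Gins1, Alpk2, Kcnq5, Efhd2, Il17f, Frmpd4, Polr3b and Chrna9. Among these, the region inside Polr3b, a subunit gene of RNA polymerase III, had the smallest adjusted p (0.00322), with 4.92 and 8.82 CPM in cTreg and 23.2 and 30.9 CPM in eTreg libraries. The Frmpd4 region kept its call without FntbKO eTreg 2 (adjusted p = 0.0337).

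Among regions of at least median level, the largest loss after Camk2a lay inside Tshz1, a zinc finger transcription factor gene, with 13.7 and 11.2 CPM in cTreg libraries and 2.80 and 3.64 CPM in eTreg libraries (log2 -1.89, SE 0.35, adjusted p = 0.00841). The next were at Cyria (log2 -1.77), Fam126a (-1.73), Tank (-1.69), Arl4c and Cblb (both -1.68). Cblb encodes an E3 ubiquitin ligase that restrains T cell activation. Its region (chr16:52155056-52155812) had 14.5 and 9.34 CPM in cTreg libraries and 4.41 and 3.15 CPM in eTreg libraries. The others, at Slc25a33, Them7, Leprotl1, Rnf157, Rreb1, Usp25, Arhgap18 and Stra6, had log2 fold changes of -1.67 to -1.48. In all of these 30 regions the FntbKO groups did not overlap, which the choice of regions required. Over all tested regions, 24.2% had both eTreg libraries above both cTreg libraries and 24.4% had both below.

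Genes of effector Treg cells were measured in 429 tested regions at 36 genes. Of these regions, 16 gained accessibility in FntbKO eTreg cells and 0 lost it, which is 3.73% called against 1.36% of all regions. The gains fell on 8 genes, and 28 genes had none. The median log2 fold change was 0.17, against -0.00416 over all tested regions. Tigit, which encodes an inhibitory receptor, had 3 of the gains. The region inside the gene (chr16:43661552-43661888) had 1.64 and 5.19 CPM in cTreg libraries and 9.62 and 11.6 CPM in eTreg libraries (log2 1.52, adjusted p = 0.0236). Near Cxcr3, the receptor gene for interferon-induced chemokines, a region 3.04 kb from the start site had 3.56 and 7.84 CPM in cTreg libraries and 15.4 and 20.7 CPM in eTreg libraries (log2 1.60, SE 0.29, adjusted p = 0.00839).

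Icos, a costimulatory receptor gene, gained at 2 regions (log2 1.18 and 1.27), and Il10, which encodes an inhibitory cytokine, gained at 2 regions (0.59 and 1.12). Maf, a transcription factor that acts on Il10, gained at 2 regions, of which the larger had 3.83 and 7.52 CPM in cTreg and 15.6 and 16.9 CPM in eTreg libraries (log2 1.45, adjusted p = 0.00732). The 2 gains at Cd44, a receptor for hyaluronan, were smaller (0.58 and 0.73). The remaining gains lay near Il1rl1 and inside Rora. Summed over all regions of the list, accessibility was 4817 and 5035 CPM in FntbKO cTreg libraries and 5377 and 5537 CPM in FntbKO eTreg libraries.

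Helper T cell cytokine and lineage genes had 11 gains and 0 losses among 191 tested regions (5.76%), at 7 of 17 genes. Their median log2 fold change was 0.09. Of all tested regions, 1.36% were called. Il17a and Il17f, neighbouring genes of the IL-17 family, had 3 gains between them. The region 12.9 kb from the Il17a start site (chr1:20743785-20744360) had 3.01 and 4.02 CPM in cTreg libraries and 18 and 11.8 CPM in eTreg libraries (log2 2.01, SE 0.32, adjusted p = 0.00419), and this call was lost without FntbKO cTreg 1 alone (adjusted p = 0.161), not without any other FntbKO library. The Il17f region had 1.91 and 4.41 CPM in cTreg and 10.8 and 14.9 CPM in eTreg libraries (log2 1.95, adjusted p = 0.0075). Near Ifng, which encodes interferon gamma, a region had 3.01 and 3.63 CPM in cTreg libraries and 9.22 and 9.84 CPM in eTreg libraries (log2 1.5, adjusted p = 0.0367). At each of these the eTreg libraries lay above both cTreg libraries, as they did at 24.2% of all tested regions. The choice of called gains made this likely.

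Il23r, the receptor gene for IL-23, gained at 2 regions of low level (log2 1.96 and 2.51), and Stat4, a transcription factor downstream of IL-12, at 2 regions (1.30 and 1.37). Rora, which encodes the nuclear receptor ROR alpha and is counted in the effector list too, gained at 2 regions. One of them held 0 and 4 counts in cTreg libraries and 8 and 22 counts in eTreg libraries, so its fold change rests on few reads. Tbx21, Gata3, Bcl6, Il4, Il5, Il13, Il22, Cxcr5 and Stat3 were among the genes with no called region. Gata3 and Rora are shared with the effector list.

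The region over the start site of Il21 (chr3:37232632-37233215) gained accessibility too. IL-21 is a cytokine of follicular helper and IL-17-producing T cells. The region had 1.64 and 2.72 CPM in cTreg libraries and 6.81 and 6.89 CPM in eTreg libraries (log2 1.59, SE 0.39, adjusted p = 0.0364). In WT cells the log2 fold change was 0.72 (adjusted p = 0.216). The difference between these changes was 0.86 (SE 0.50, adjusted p = 1), so it did not pass.

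Of 19 cytokine receptor genes, 3 gained and 2 lost accessibility, with 4 gains and 2 losses among 206 regions (2.91%, median log2 0.08). The share called over all tested regions was 1.36%. Il1rl1, the receptor gene for the alarmin IL-33, gained at 2 regions upstream. The larger (chr1:40393223-40393868) had 1.91 and 4.28 CPM in cTreg libraries and 12.4 and 16.4 CPM in eTreg libraries (log2 2.13, adjusted p = 0.0158). Il18r1, a receptor chain for IL-18, gained (log2 1.66), as did Il1r2, a decoy receptor for IL-1 (1.37). A region near Il10rb, a receptor chain for IL-10, had 21.5 and 24.8 CPM in cTreg libraries and 10.8 and 8.56 CPM in eTreg libraries (log2 -1.29, SE 0.23, adjusted p = 0.00662). Il4ra, the receptor chain for IL-4, fell by 0.77 on the log2 scale at 1 region. Of 15 chemokine receptor genes, 2 gained at 3 of 122 regions (2.46%; median log2 0.09), Cxcr3 at 1 and Ccr1 at 2 (log2 0.94 and 1.24). The 7 chemokine receptor genes of the effector list are in both counts.

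Genes of central Treg cells went the other way. Of 460 tested regions at 17 of the 18 genes, 9 lost and 2 gained accessibility (2.39%), and the median log2 fold change was -0.27. Over all tested regions 1.36% were called. 7 genes had only losses, Dapl1 and Foxp1 had both, and 8 had no call. Bach2, a repressor that holds T cells in a resting state, had 39.9 and 29.8 CPM in cTreg and 18.8 and 18.5 CPM in eTreg libraries at a region inside the gene (log2 -0.89, adjusted p = 0.0237). Lef1, a transcription factor of the WNT pathway that marks naive T cells, fell by 1.11 on the log2 scale. On the same scale Klf2, which maintains S1pr1 expression, fell by 0.92, Satb1, a chromatin organiser, by 0.76, and S1pr1, the receptor for exit from lymphoid organs, by 0.53. A Tgfbr3 region held 17 and 21 counts in cTreg libraries and 0 and 0 in eTreg libraries (adjusted p = 0.0371), so no fold change is given. Summed accessibility of the list was 6107 and 5772 CPM in cTreg and 5293 and 5151 CPM in eTreg libraries.

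Treg identity genes had 1 gain and 3 losses among 196 regions (2.04% against 1.36% of all regions, median log2 -0.11). Ikzf2, which encodes Helios, gained at 1 region (log2 0.84). Gpr83 (log2 -1.35), Lrrc32, the anchor of latent TGF-beta (-0.79), and Nrp1 (-0.71) each lost accessibility at 1 region. The Gpr83 region had 14.5 and 17.5 CPM in cTreg libraries and 6.81 and 5.90 CPM in eTreg libraries.

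Farnesyltransferase acts on RAS proteins, RHEB and lamins, and lists around these were counted too. TCR and RAS-ERK signalling genes had 2 gains and 0 losses among 360 regions (0.556%, below the 1.36% of all regions; median log2 -0.02). Prenylation and lamin genes had 2 gains among 68 regions (2.94%; median log2 0.01), both at Lmnb1, which encodes the farnesylated lamin B1 (log2 1.03 and 1.26). Genes of mTORC1, the kinase complex that RHEB activates, and of amino acid supply had 2 gains among 79 regions (2.53%, median log2 0.17). They lay at Hif1a (log2 1.92) and Asns (1.14). The Hif1a region held 4 and 40 counts in cTreg libraries and 32 and 70 counts in eTreg libraries. Its log2 fold change was 1.36 to 3.57 when 1 library was left out. Cell cycle genes had 1 gain among 114 regions (0.877%; median log2 -0.01), inside Cdk6 (log2 0.91).

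Genes induced by the T cell receptor had 2 gains and 1 loss among 289 regions (1.04%, below the 1.36% of all regions, median log2 -0.06). Tox2 (log2 1.66) and Nfatc1 (1.54) gained. Tox, a nuclear factor of chronically stimulated T cells, had 87.8 and 62.1 CPM in cTreg libraries and 35.3 and 34.3 CPM in eTreg libraries at a region inside the gene (log2 -1.10, SE 0.17, adjusted p = 0.00322). Genes of AP-1, BATF, MAF and IRF factors had 3 gains and 0 losses among 158 regions (1.9%, near the 1.36% of all regions, median log2 0.08). Of these gains, 2 lay at Maf and 1 near Jun (log2 0.99).

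**Figure D4:**
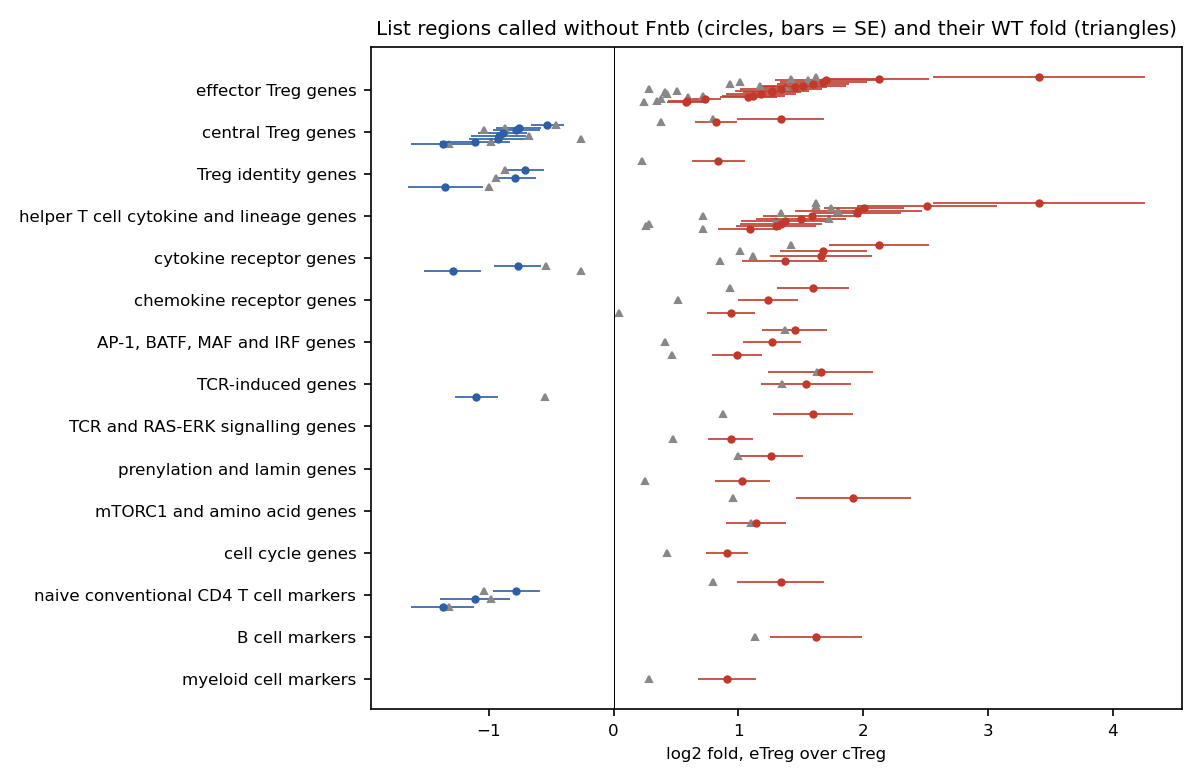
Log2 fold change of eTreg against cTreg cells (horizontal axis) for each region called in FntbKO cells, by gene list; circles with bars are FntbKO values with their SE (red higher, blue lower) and grey triangles the WT values of the same regions. Helper T cell genes (11 of 191) and effector Treg genes (16 of 429) hold gains only, as do several other lists with fewer calls. Central Treg genes hold 9 losses and 2 gains. Over all tested regions 1.36% were called, 736 higher and 297 lower.

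Markers of cells other than Treg cells were counted beside these. Naive conventional CD4 T cell markers had 1 gain and 3 losses among 165 regions (2.42%; median log2 -0.21), and 8 of these 10 genes are in the central Treg list. Their summed accessibility was 2360 and 2210 CPM in FntbKO cTreg libraries and 2067 and 2020 CPM in FntbKO eTreg libraries. Beside the 1.36% of all regions, B cell markers had 1 gain among 21 regions (4.76%), at Blk, with summed values of 77.4 and 97.6 CPM in cTreg and 93.8 and 119 CPM in eTreg libraries, and the defining genes Cd79b and Ms4a1 had no region. Myeloid markers had 1 gain among 42 regions (2.38%), over the Cebpb start site, with 300 and 322 CPM against 351 and 366 CPM, and Csf1r and Lyz2 had no region. Markers of CD8 T and NK cells had no call among 31 regions, with 213 and 200 CPM in cTreg libraries and 161 and 162 CPM in eTreg libraries. Dendritic cell markers had no call among 24 regions (164 and 192 CPM against 187 and 201 CPM), and erythroid markers none among 8 (54.3 and 55.6 CPM against 40.9 and 50.1 CPM). The part of such cells in the results was not tested.

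Some genes carried several changed regions. The 1033 regions lay at 772 genes, of which 535 had only gains, 218 only losses and 19 both, and 116 regions had no gene. By chromosome, the share called was highest on chromosome 18 (2.18%) and lowest on chromosome 17 (0.748%), and the 20 calls on chromosome 19 were all gains. Of 8250 genes with 3 or more tested regions, 19 (0.23%) had 3 or more called in 1 direction, 15 with gains and 5 with losses, and Wwox, a very long gene with 72 tested regions, was in both groups. Genes with more tested regions had more chances to be among them. Itpr1, the gene of a calcium release channel of the endoplasmic reticulum, had 5 gains among 61 tested regions. Its region chr6:108448011-108448792 had 17.9 and 26.1 CPM in cTreg libraries and 38.9 and 39.8 CPM in eTreg libraries (log2 0.81, SE 0.16, adjusted p = 0.0129). The same region had 27.1, 25.1 and 26.4 CPM in WT cTreg and 25.5, 29.3 and 31.2 CPM in WT eTreg libraries, so the WT groups overlapped. The region was chosen for its FntbKO call, and FntbKO groups hold 2 libraries where WT groups hold 3. Overlap is therefore no even comparison of the genotypes. Over the 5 regions the log2 fold change was 0.81 to 1.80 in FntbKO cells and -0.02 to 0.47 in WT cells, where none passed.

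Gpr15, the gene of a receptor that guides T cells to the large intestine, had 3 gains among 8 tested regions, 15.2 to 21.7 kb from its start site. The strongest (chr16:58696798-58697165) had 12.9 and 15.7 CPM in cTreg libraries and 31.3 and 28.7 CPM in eTreg libraries (log2 1.05, SE 0.21, adjusted p = 0.0107). In WT cells it had 15.1, 26.7 and 22.6 CPM in cTreg and 20.6, 22.1 and 24.6 CPM in eTreg libraries (log2 0.07, adjusted p = 0.887). The difference between genotypes was 0.98 (SE 0.27), and its adjusted p was 1. At the 3 regions that difference was 0.98, 0.55 and 0.75.

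Trib1, which encodes a pseudokinase, had 3 gains among 19 tested regions, with log2 fold changes of 1.05 to 2.35. They lay outside the gene, 68.9 to 74 kb from its nearest end or start site. Sgip1 had 4 gains among 16 tested regions (0.95 to 1.74), and Bhlhe40, a transcription factor of activated T cells, had 3 among 16, near its start site (0.43 to 1.03). Galnt2, which starts O-linked glycosylation, had 3 gains among 27 tested regions (0.87 to 1.34). The other genes with 3 gains were Slc9a9, Tigit, Ece1, Eif3h, Hapln1, Impa2, Ptpn13 and Serpina12, with 7 (Serpina12) to 38 (Slc9a9) tested regions. On the side of losses, Ugcg, which makes glucosylceramide, fell by 0.98 to 2.42 on the log2 scale at 3 of its 22 tested regions, and Rbms1, an RNA-binding protein gene, by 0.75 to 1.34 at 3 of 24. Aven, Usp6nl and Wwox made up the rest. The Galnt2 and Hapln1 regions with the smallest p lost their call without FntbKO cTreg 1 (adjusted p = 0.124 and 0.155) and kept it without each of the other FntbKO libraries.

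Changed regions were sparse at listed start sites. Within 1 kb of these, 0.411% of 11688 tested regions were called, 29 higher and 19 lower. The share was 1.46% inside genes, 1.49% outside genes and 2.14% at regions with no gene. Regions at the starts of genes without a listed start site were counted as inside or outside genes. With regions split by level into 4 equal groups, calls rose from 0.262% in the lowest group to 2.35% in the highest. Within the highest group 0.421% were called at start sites and 3.57% elsewhere. The median width was 496 bp for gains, 455 bp for losses and 354 bp for all regions.

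The start-site regions that changed are shown with promoter sequences from RefSeq (GRCm38.p6), which run from 250 bases before to 50 after the start, 5′ to 3′ on the gene's strand. A few are printed because they gained or lost accessibility and hold a motif of a factor family of the lists. Capitals mark matches to the AP-1 site TGANTCA in Srxn1, Emp1 and Arpp21, and to TGATGNAA, the C/EBP-ATF response element (CARE) of amino acid stress, in Asns.
Srxn1: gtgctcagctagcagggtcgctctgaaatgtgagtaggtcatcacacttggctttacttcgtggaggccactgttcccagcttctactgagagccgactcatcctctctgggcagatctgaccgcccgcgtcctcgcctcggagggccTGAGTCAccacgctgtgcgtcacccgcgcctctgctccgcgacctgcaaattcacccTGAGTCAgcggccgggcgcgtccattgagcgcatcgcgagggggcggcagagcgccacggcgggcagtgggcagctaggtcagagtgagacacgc
Emp1: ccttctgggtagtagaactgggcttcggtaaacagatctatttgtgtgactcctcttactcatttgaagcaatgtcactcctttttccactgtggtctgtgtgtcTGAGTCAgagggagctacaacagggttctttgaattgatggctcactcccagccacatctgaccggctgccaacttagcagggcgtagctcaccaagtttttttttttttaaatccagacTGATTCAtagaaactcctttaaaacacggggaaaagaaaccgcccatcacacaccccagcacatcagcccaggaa
Asns: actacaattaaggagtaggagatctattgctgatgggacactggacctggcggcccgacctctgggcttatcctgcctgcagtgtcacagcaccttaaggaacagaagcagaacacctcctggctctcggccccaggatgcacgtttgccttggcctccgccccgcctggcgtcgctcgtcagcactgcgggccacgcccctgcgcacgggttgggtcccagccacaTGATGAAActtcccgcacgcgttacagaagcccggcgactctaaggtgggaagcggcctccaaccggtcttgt
Arpp21: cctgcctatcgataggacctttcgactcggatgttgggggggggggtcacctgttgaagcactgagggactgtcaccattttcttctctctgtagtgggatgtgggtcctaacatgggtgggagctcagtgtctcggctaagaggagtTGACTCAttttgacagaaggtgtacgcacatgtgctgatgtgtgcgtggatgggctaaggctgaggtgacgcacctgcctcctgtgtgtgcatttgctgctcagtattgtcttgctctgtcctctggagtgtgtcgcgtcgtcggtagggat

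The Srxn1 window (chr2:152105274-152105573, plus strand), at the gene of a sulfiredoxin that repairs oxidised peroxiredoxins, holds the AP-1 letters at 102 and 45 bases before the start. Its region had 3.28 and 4.02 CPM in cTreg libraries and 8.01 and 12.2 CPM in eTreg libraries (log2 1.47, SE 0.33, adjusted p = 0.025). The Emp1 window (chr6:135362681-135362980, plus strand), at the gene of an epithelial membrane protein, holds them at 145 and 25 bases before the start. Its region had 26.0 and 35.7 CPM in cTreg and 58.9 and 59.2 CPM in eTreg libraries (log2 0.92, SE 0.14, adjusted p = 0.00322). Both regions thus had every eTreg library above every cTreg library, which their choice as called gains made likely.

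The Asns window (chr6:7693160-7693459, minus strand), at the gene of asparagine synthetase, a target of the amino acid stress factor ATF4, holds the CARE letters 23 bases before the start. Its region had 7.93 and 7.26 CPM in cTreg libraries and 18.4 and 15.3 CPM in eTreg libraries (log2 1.14, SE 0.24, adjusted p = 0.017), and in WT cells the log2 fold change was 1.10. This call was lost without any single FntbKO library. The Arpp21 window (chr9:112185900-112186199, minus strand) holds the AP-1 letters 102 bases before the start, and its region fell by 0.76 on the log2 scale (adjusted p = 0.0245; 30.6 and 24.4 CPM in cTreg against 15.4 and 16.6 CPM in eTreg libraries).

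Motifs were searched on both strands in all promoter windows. Of windows whose start lies in a tested region, 4.77% of 12192 held the AP-1 letters. Among those in a region called higher, 6 of 28 held them (21.4%), and among those called lower 2 of 16 (12.5%). The ETS letters CCGGAA were in 29.3% of all such windows, in 7.14% of those called higher and in 6.25% of those called lower. The RUNX letters TGTGGT were in 12.6%, 21.4% and 6.25%, and the CARE letters in 1.93%, 3.57% and 6.25%. Over all 32851 windows in the table the AP-1, ETS, RUNX and CARE letters were in 7.81%, 14.9%, 16.8% and 3.97%. These are counts of letters, with no test, and a match does not show that a factor binds.

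MicroRNA genes within 10 kb of a called region were listed as well. Of 1005 hairpins, 622 lay within 10 kb of a tested region and 13 within 10 kb of a called one. Of the 1312 tested regions near a hairpin, 14 were called (1.07%), which is no more than the 1.36% of all regions. Mir21a and Mir31 were chosen from them after their values were seen. Their main mature arms are, with the seed (bases 2 to 8) in capitals:
mmu-miR-21a-5p: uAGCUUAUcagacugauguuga
mmu-miR-31-5p: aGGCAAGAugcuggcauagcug

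Mir21a lies at the end of Vmp1 and is induced on T cell activation. A region 2.6 kb from the hairpin (chr11:86586755-86587575) had 37.6 and 45 CPM in cTreg libraries and 58.5 and 61.8 CPM in eTreg libraries (log2 0.54, SE 0.14, adjusted p = 0.0454). A second region 5.97 kb away had 5.33 and 9.27 CPM in cTreg and 16.4 and 19.4 CPM in eTreg libraries (log2 1.25, adjusted p = 0.0195). The region 7.79 kb from Mir31 had 0.547 and 1.17 CPM in cTreg libraries and 3.61 and 5.61 CPM in eTreg libraries (log2 2.33, SE 0.48, adjusted p = 0.0143). In WT cells its log2 fold change was 2.49 (adjusted p = 0.00152). The seeds of the 2 arms differ.

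The same comparison in WT cells called 2619 regions (3.44%), 1393 higher in eTreg cells (1.83%) and 1226 lower (1.61%), from 3 libraries a group against 2. Leaving out WT cTreg 3, eTreg 3, cTreg 1, eTreg 1, eTreg 2 or cTreg 2 changed this count to 427, 545, 774, 818, 2488 and 3664, in that order. Of the 736 gains in FntbKO cells, 268 were also gains in WT cells, which is 36.4% of the FntbKO gains and 19.2% of the WT gains. Of the 297 losses, 133 were shared, 44.8% of the FntbKO losses and 10.8% of the WT losses. No region was called in opposite directions. The fold change had the same sign in WT cells at 722 of the 736 gains and 293 of the 297 losses. Median log2 fold changes at the gains were 1.30 in FntbKO and 0.66 in WT cells, and at the losses -1.06 and -0.68, for regions chosen on the FntbKO values.

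The FntbKO libraries were also read at regions called from the 6 WT libraries alone, a fit added after seeing the data in which no FntbKO library entered. It called 2522 regions (3.53% of those tested), 1498 higher in eTreg cells and 1024 lower. At 1170 of the 1498 gains (78.1%) both FntbKO eTreg libraries lay above both FntbKO cTreg libraries, against 24.2% of all regions. At 765 of the 1024 losses (74.7%) both lay below, against 24.4%. The median centred log2 level at these gains was -0.69 and -0.14 in FntbKO cTreg libraries 1 and 2 and 0.33 and 0.53 in FntbKO eTreg libraries 1 and 2. At the losses it was 0.38, 0.16, -0.18 and -0.33. In both sets FntbKO cTreg 1 lay farther from the eTreg libraries than FntbKO cTreg 2.

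**Figure D5:**
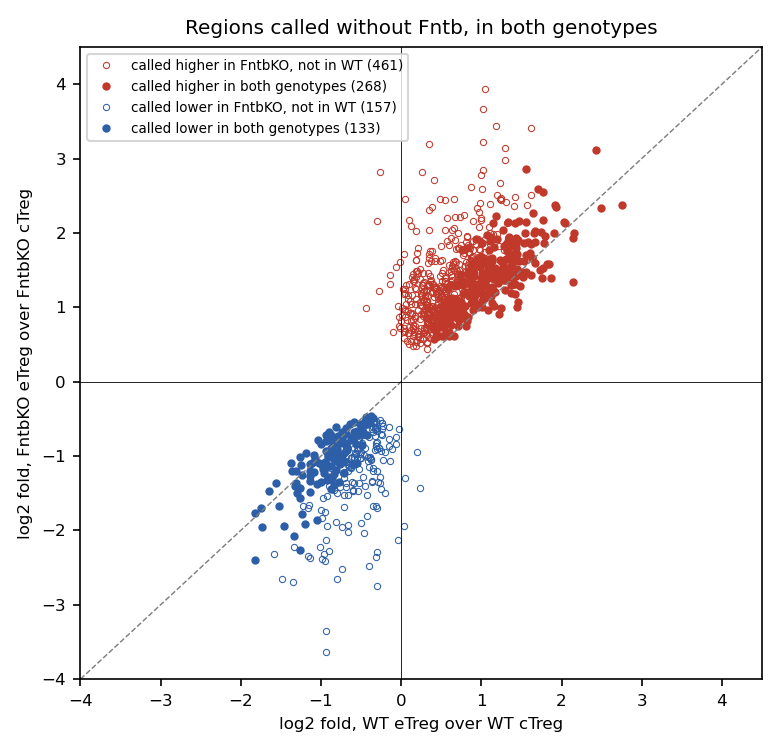
Log2 fold change of eTreg against cTreg cells in FntbKO (vertical axis) and in WT cells (horizontal axis) for regions called in FntbKO cells, 1 point a region, filled where also called in WT cells; the dashed line marks equal changes. Nearly all points share their sign in both genotypes, and 268 gains and 133 losses were called in both.

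The difference between the genotypes in the change from cTreg to eTreg cells was tested at each region. With edgeR's quasi-likelihood test 0 of 76216 regions passed, while 3099 (4.07%) were under 0.05 before adjustment. No region passed in DESeq2 (2133 before adjustment) or in limma-voom (3286 before adjustment). Regions called in FntbKO cells and not in WT cells are thus not shown to differ between the genotypes. This holds for the regions of Itpr1 and Gpr15 above, and for 2 of the 3 Trib1 regions. The third Trib1 region was called in WT cells too (log2 0.54, adjusted p = 0.0305).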

How the data were processed

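Chromatin accessibility was measured by ATAC-seq in 10 libraries. The authors deposited raw read counts per region, without normalization. Per the submitters' processing notes, the tools were MACS2 2.1.1, Trimmomatic 0.36, bedtools, Picard 2.9.4 and SAMtools, with mm10 and GRCm38. The aligner and the merging of regions are not given in the sources used here. Between 66.73% and 79.24% of the counts of a library were even, as when both mates of a pair are counted, so counts are not all independent. The table does not state whether starts count from 0 or 1.

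The test was that of edgeR 4.0.16 after TMM scaling (R 4.3.3; filterByExpr, robust quasi-likelihood test, 1 mean per group, all 10 libraries, 6 residual degrees of freedom), with Benjamini-Hochberg adjustment over all tested regions. DESeq2 1.42.0 and limma 3.58.1 served as alternatives. The pipeline was tested on simulated counts with known changes in the FntbKO eTreg libraries. It recovered 23.2% of the 2-fold and 60.8% of the 4-fold changes. Of its 96 calls, 15 were false, so the adjusted p threshold was exceeded there. Genes came from RefSeq tables of GRCm38.p6: 71541 regions (92.8%) received a gene, and promoter and miRNA sequences were matched by symbol. Base sequences of the regions were not used here. CPM are counts of a region over the TMM-scaled total of its library.

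The members and gene lists were chosen with earlier results of these data known. Regions named are the 15 largest gains and losses (1 a gene, at least median level, groups not overlapping), those called without each FntbKO library, genes with 3 or more regions in 1 direction, all Fntb regions, and up to 4 called genes a list. Further named regions (Foxp3, start sites, miRNA neighbours, other called list regions) were chosen after values were seen. Alternatives covered normalization, filtering, halved counts, other tools, left-out libraries and a replicate block. A few genes of the lists are counted but not reported here by name.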

Additional observations from a re-analysis of the deposited data

How the results depend on the processing

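With 2 libraries a group, single libraries set the count of FntbKO calls. Leaving out 1 library gave 5 to 2249 regions for FntbKO eTreg against cTreg and 427 to 3664 for WT eTreg against cTreg. Halved counts gave 1748 regions in FntbKO cells. Leaving out WT cTreg 2 and FntbKO cTreg 1 together, chosen after seeing the data, gave 38 in FntbKO and 4225 in WT cells. DESeq2, limma-voom, RLE scaling, total counts, another filter or none, and a fit of the 4 FntbKO libraries alone gave 885 to 1412 in FntbKO cells. The 6 WT libraries alone, also chosen after seeing the data, gave 2522 in WT cells. The difference between genotypes gave 0 in every fit. The causes were not tested. Of 4378 values of named regions under alternatives, 921 lost their call, 22 gained one and 0 reversed. Calls were fewer at regions of low level, and the part of depth in this was not tested.

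The labels number the replicates, but the numbers share no stated batch. Deviations of same-numbered libraries correlated at 0.165, 0.083 and 0.032 in WT and at 0.18 in FntbKO cells. Each WT cTreg library correlated best with the WT eTreg library of its number. WT eTreg 3 correlated better with WT cTreg 2 (0.044) than with its own number. In FntbKO cells, with 2 libraries a group, the other pairs hold the same value with its sign turned (-0.18). With a replicate block, 2480 regions were called in FntbKO cells, 6221 when the block was used with the 4 FntbKO libraries alone, and 4141 in WT cells.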
